A study of Homo sapiens with 18 samples.

Results

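The ERBB receptors and their EGF-family ligands were followed in A549 cells given sodium propionate (SP). The genes were chosen by name: 4 receptors (EGFR, ERBB2, ERBB3 and ERBB4) and 6 ligands (AREG, EREG, HBEGF, TGFA, BTC and NRG1), which are 10 of the 61541 genes listed in the count tables. A549 is an established human lung adenocarcinoma line and was grown in DMEM with high glucose and fetal bovine serum. Genotype was wild type in the labels for all 18 libraries, and no other agent was given. In one experiment, untreated cells at 24 h (Control 24 h) stood beside cells in 5 mM SP for 3 h or 24 h. In the other, untreated cells at day 3 (Control 3 days) stood beside cells in 5 mM SP for 3 days or 12 days. Each of the 6 groups had 3 libraries. The SP 3 h and SP 12 days groups had no control of their own time, so time in culture and propionate cannot be told apart in those comparisons. All values come from 1 cell line, and bulk RNA cannot separate a change in the share of cells from a change in RNA per cell.

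ERBB receptors are receptor tyrosine kinases that act in pairs. EGFR binds AREG, TGFA, EREG, HBEGF and BTC, and EREG, HBEGF and BTC also bind ERBB4. NRG1 binds ERBB3 and ERBB4. ERBB2 has no known ligand and serves as the preferred partner of the others, while ERBB3 has very little kinase activity of its own and recruits PI3K when paired. The ligands are made as membrane-bound precursors that proteases such as ADAM17 release, and the paired receptors signal through RAS and ERK and through PI3K and AKT. In the lung these ligands and receptors take part in epithelial repair, and EGFR is a drug target in lung adenocarcinoma.

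The 250 bases upstream of the RefSeq start of 4 ligands are shown because HBEGF and BTC moved in opposite directions with SP, and because AREG and EREG are neighbours with similar values from library to library. The sequences are from RefSeq (GRCh38.p14) and run 5′ to 3′ toward the start. Capitals mark motifs found on either strand, so that a match on the other strand reads as the reverse complement: the GC box GGGCGG, the AP-1 site TGANTCA, the CRE TGACGTCA and the TATA box TATAAA.
HBEGF (chr5:140346604-140346853, minus strand): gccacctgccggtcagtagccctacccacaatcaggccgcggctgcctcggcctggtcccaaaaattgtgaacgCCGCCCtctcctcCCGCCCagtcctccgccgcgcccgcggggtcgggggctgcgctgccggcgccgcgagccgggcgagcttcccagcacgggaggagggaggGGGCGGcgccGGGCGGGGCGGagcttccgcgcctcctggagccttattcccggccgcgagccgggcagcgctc
BTC (chr4:74794524-74794773, minus strand): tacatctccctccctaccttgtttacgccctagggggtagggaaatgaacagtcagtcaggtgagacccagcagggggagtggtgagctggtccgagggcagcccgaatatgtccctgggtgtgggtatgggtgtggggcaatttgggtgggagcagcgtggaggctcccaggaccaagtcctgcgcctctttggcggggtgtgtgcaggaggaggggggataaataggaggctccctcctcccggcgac
AREG (chr4:74444886-74445135, plus strand): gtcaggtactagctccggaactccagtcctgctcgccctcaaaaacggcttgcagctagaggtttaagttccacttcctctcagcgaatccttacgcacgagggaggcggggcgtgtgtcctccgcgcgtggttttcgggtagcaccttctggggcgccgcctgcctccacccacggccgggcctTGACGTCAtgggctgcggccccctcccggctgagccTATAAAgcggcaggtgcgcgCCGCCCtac
EREG (chr4:74364895-74365144, plus strand): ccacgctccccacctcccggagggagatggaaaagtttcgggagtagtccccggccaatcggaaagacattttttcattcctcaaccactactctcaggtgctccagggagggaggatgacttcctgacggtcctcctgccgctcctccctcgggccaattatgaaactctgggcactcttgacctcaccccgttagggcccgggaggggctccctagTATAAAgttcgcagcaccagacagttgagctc
HBEGF had 5 GC boxes, 2 of which share bases, and a GC content of 76.4%. BTC held none of the 4 motifs and had a GC content of 62.0%. The HBEGF window had 33 CpG dinucleotides and the BTC window had 8, against a median of 11 over all 34943 promoters. AREG had a CRE, a TATA box and a GC box, and EREG had a TATA box. Of all promoters of this length, 42.5% held the GC box, 6.59% the AP-1 site, 1.63% the CRE and 10.8% the TATA box, and no motif was read as a binding site.

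Counted reads per library ran from 14187401 to 43765330. The 8 A549 line markers, keratins and NRF2-driven enzymes among them, had at least 1519 reads in every library, and CDKN2A, which is deleted in A549, had 0 reads in all 18. Of 7 markers of blood, endothelial and stromal cells, PTPRC had at most 2 reads and CD3E had 0. The summed level of the 7 was 0.978 to 2.08 CPM (reads scaled to the library's TMM-adjusted total) in the 24 h experiment. In the 3-day experiment it was 3.66 to 4.20 CPM in the control, 5.48 to 6.52 in SP 3 days and 7.68 to 11.0 in SP 12 days. LUM, a matrix proteoglycan gene, was the gene of the 7 that differed most, with 0.903 ± 0.27 CPM in that control, 3.76 in SP 3 days and 7.49 in SP 12 days, and its part in the results was not tested. SP 12 days replicate 3 stood apart from the other 2 libraries of its group (chi-square per degree of freedom over genes of 19.4 and 30.8, against 3.10 between those 2). Control 24 h replicate 3 and SP 3 h replicate 3 also stood apart (63.4 and 113, and 33.4 and 70.5), and values without a library are given beside the results they change. In the 24 h experiment the libraries differed in how counts followed the GC content of genes, with rank correlations of -0.50 to 0.53. Each correlation used the library's log2 CPM minus the mean of all libraries of its experiment. A fit with offsets for GC content and gene length was therefore set beside the main fit. These offsets shifted the all-gene median of the log2 fold changes from -0.01 to -0.13 for SP 24 h and from -0.02 to -0.12 for SP 3 days. In the days experiment the trend was weaker, from -0.26 to 0.32, but it differed between groups. It was -0.13, -0.26 and 0.07 in Control 3 days and 0.12, 0.23 and 0.32 in SP 3 days, without overlap. In SP 12 days it was -0.11, -0.08 and 0.09. The part of this trend in the 3-day differences was not tested.

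Of the tested receptors, ERBB3 showed the largest log2 fold changes against Control 24 h. At Control 24 h its 3 libraries held 43, 80 and 106 reads, or 2.28, 4.23 and 3.72 CPM. SP 3 h libraries had 16.6, 19.6 and 11.7 CPM, and SP 24 h libraries had 25.4, 32.0 and 26.0 CPM. The 3 groups did not overlap, and the order was control, 3 h, 24 h. ERBB3 rose by 2.22 ± 0.26 (SE) on the log2 scale at 3 h (edgeR adjusted p = 0.0012) and by 3.02 ± 0.26 at 24 h (adjusted p = 9.3e-05), which is 8.13-fold. From 3 h to 24 h it was higher by 0.80 ± 0.24 (adjusted p = 0.041). That last call was lost without SP 3 h replicate 1 or 3, or without SP 24 h replicate 1, 2 or 3 (log2 0.62 to 0.86, adjusted p 0.071 to 0.14), while both calls against control were kept whichever single library was left out (log2 1.99 to 2.40 at 3 h and 2.79 to 3.19 at 24 h).

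In the days experiment ERBB3 began from a higher level and moved less. The control had 22.5, 22.9 and 24.6 CPM, SP 3 days had 32.0, 31.3 and 35.7, and SP 12 days had 19.5, 19.7 and 27.6. SP 3 days lay above every control library, while SP 12 days spanned the control. ERBB3 rose by 0.50 ± 0.12 at 3 days (edgeR adjusted p = 0.0033), and with the GC and length offsets by 0.29 (adjusted p = 0.028). At 12 days the log2 difference from control was -0.06 ± 0.12 (adjusted p = 0.71). Without SP 12 days replicate 3 it was -0.27 (adjusted p = 0.023). SP 12 days was lower than SP 3 days by 0.56 ± 0.12 (log2 -0.56, adjusted p = 0.011). This call was lost without SP 3 days replicate 3 (log2 -0.52, adjusted p = 0.064) or SP 12 days replicate 1 (log2 -0.49, adjusted p = 0.062).

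**Figure D1:**
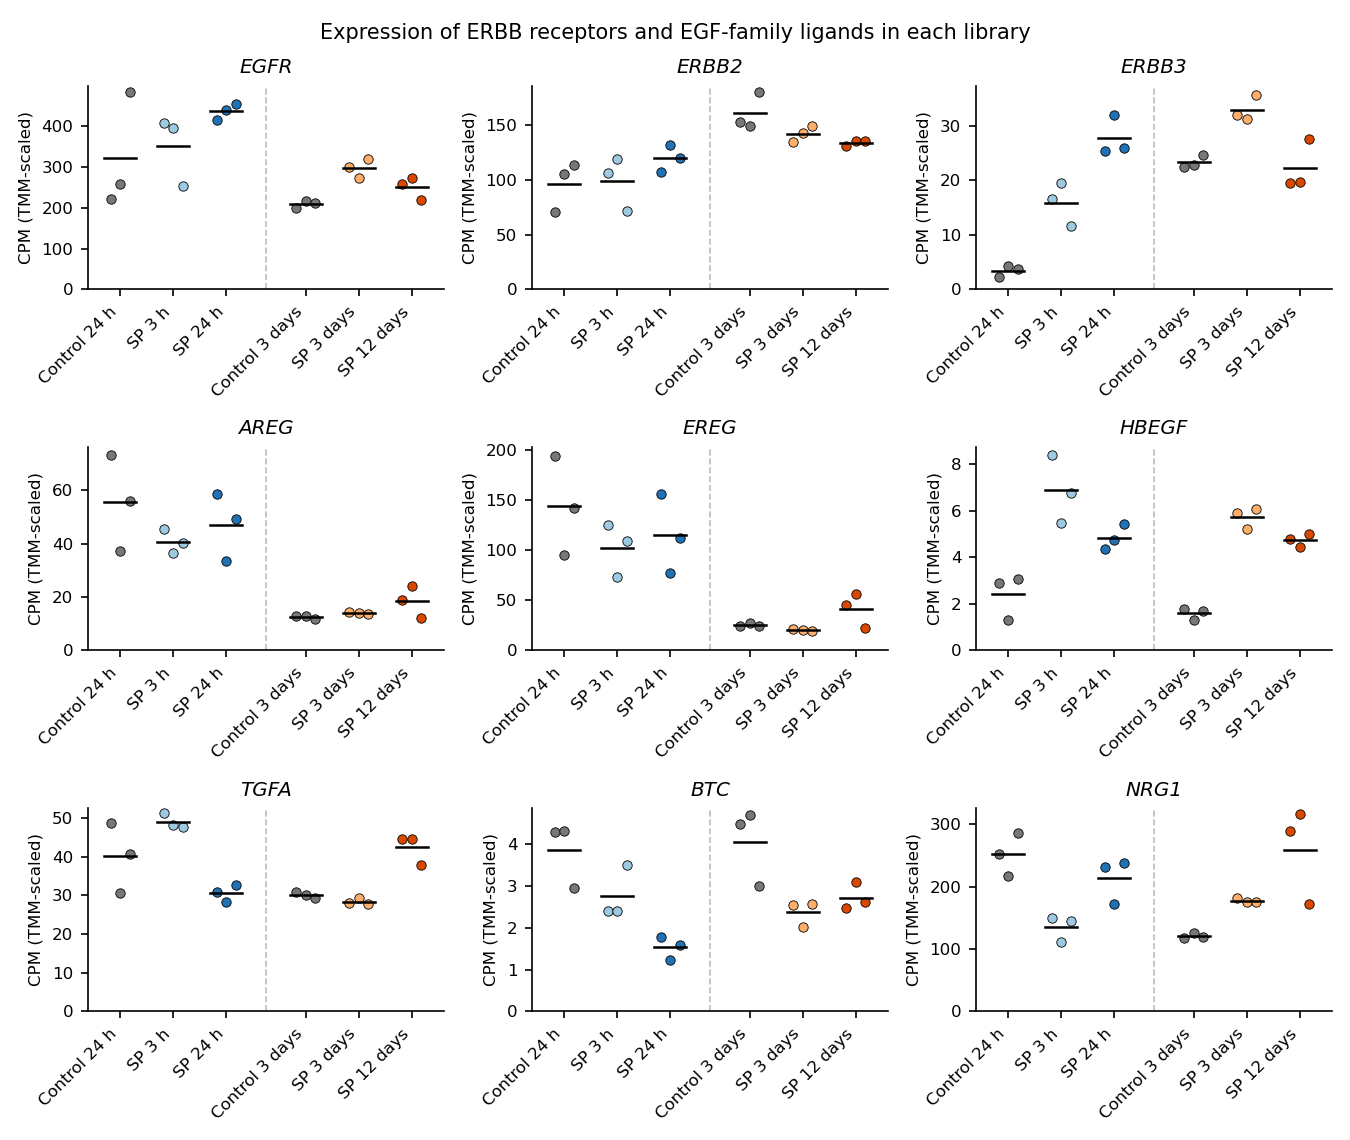
Each panel plots the TMM-scaled CPM of 1 gene (vertical axis, linear, from 0) in the 6 groups, with a point per library and a bar at the group mean; the dashed line separates the 2 experiments, which were normalised separately. ERBB3 climbed from 3.41 to 27.8 CPM between Control 24 h and SP 24 h, HBEGF was higher in every SP library than in any control library of its experiment, and SP 12 days replicate 3 lay apart from its group for AREG, EREG and NRG1.

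EGFR was among the most abundant of the genes. In the days experiment the control had 199, 217 and 211 CPM, SP 3 days had 301, 274 and 320, and SP 12 days had 258, 273 and 219. Every SP library was above every control library, by a wide margin at 3 days and a narrow one for SP 12 days replicate 3. EGFR rose by 0.52 ± 0.09 at 3 days (edgeR adjusted p = 2.7e-04) and by 0.26 ± 0.09 at 12 days (adjusted p = 0.028). With the GC and length offsets the 3-day rise was 0.37 (adjusted p = 0.0046). The 12-day call was lost with the GC and length offsets (0.17, adjusted p = 0.15), in a fit of the 2 groups alone (0.25, adjusted p = 0.053), and on leaving out replicate 1 or 3 of Control 3 days, replicate 1 of SP 3 days or replicate 1 or 2 of SP 12 days (0.18 to 0.27, adjusted p 0.054 to 0.15). EGFR-AS1, an antisense gene, shares 186 of the 15941 exon bases of EGFR, and the strand setting of the counting is not given in the sources used here.

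In the 24 h experiment EGFR did not separate SP from control. Control libraries had 221, 258 and 484 CPM, SP 3 h libraries 409, 395 and 254, and SP 24 h libraries 416, 439 and 455. The 3 lowest values (221 to 258 CPM) were in the 3 libraries with the lowest GC trend, Control 24 h replicates 1 and 2 and SP 3 h replicate 3, and the other 6 libraries held 395 to 484 CPM; the part of the GC trend in these levels was not tested. SP 24 h lay above SP 3 h in all libraries, and the control spanned both. The log2 difference from control was 0.13 ± 0.29 at 3 h (edgeR adjusted p = 0.83) and 0.44 ± 0.29 at 24 h (adjusted p = 0.27). Without Control 24 h replicate 3, the library with 484 CPM, the 24 h difference was 0.86 and passed (adjusted p = 0.0086), so the result at 24 h turns on that library.

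ERBB2, the receptor with no known ligand, was lower after 12 days. The days control had 153, 149 and 180 CPM, SP 3 days had 134, 143 and 150, and SP 12 days had 131, 136 and 135. SP 12 days lay below every control library, and 1 library of SP 3 days was above the lowest control. ERBB2 fell by 0.26 ± 0.08 at 12 days (log2, edgeR adjusted p = 0.017), a call lost without Control 3 days replicate 3 (log2 -0.17, adjusted p = 0.085), and with the GC and length offsets the difference was -0.45 (adjusted p = 6.6e-05). At 3 days the log2 difference was -0.18 ± 0.08 (adjusted p = 0.096), and with the GC and length offsets it was -0.50 (adjusted p = 2.7e-05), beside a median shift of all genes to -0.12. It also passed without Control 3 days replicate 2 (log2 -0.24, adjusted p = 0.047) or SP 12 days replicate 3 (log2 -0.18, adjusted p = 0.030). The 24 h experiment held 70.6, 105.4 and 114 CPM in control, 106, 119 and 71.9 at 3 h, and 108, 132 and 121 at 24 h. Its log2 differences, 0.03 ± 0.22 and 0.31 ± 0.22, did not pass (adjusted p = 0.95 and 0.30), and they turned to -0.19 and -0.18 with the offsets. ERBB2 shares 715 of 10321 exon bases with MIEN1 and PGAP3 on the other strand.

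**Figure D2:**
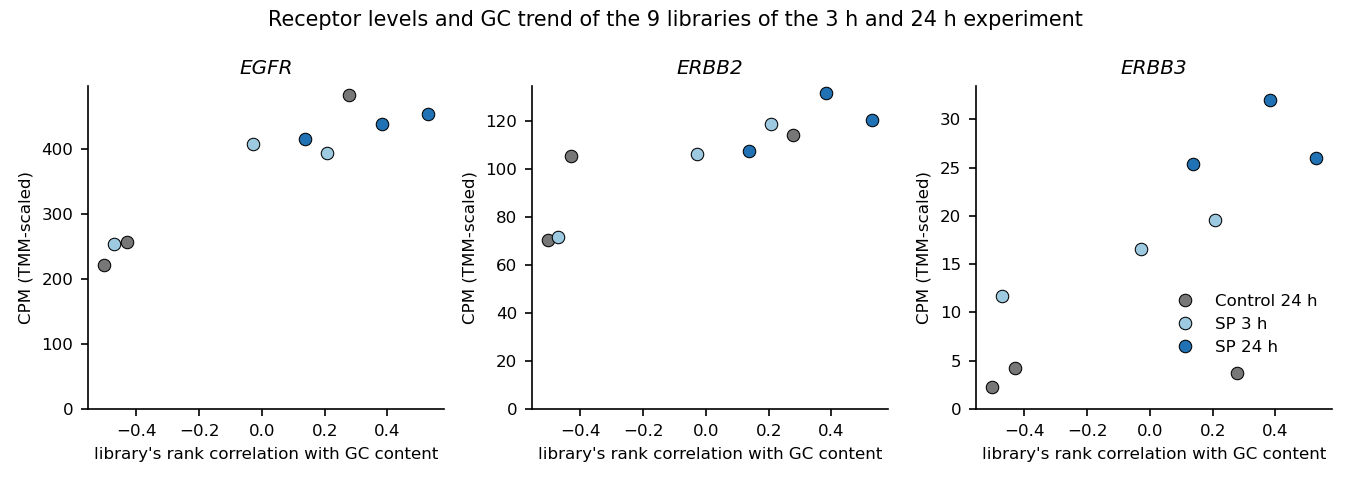
Each point is 1 of the 9 libraries of the 24 h experiment. The horizontal axis gives the rank correlation between the GC content of genes and the library's log2 CPM minus the mean of the 9 libraries. The vertical axis gives the TMM-scaled CPM of EGFR, ERBB2 or ERBB3 (linear, from 0). EGFR is at 221 to 258 CPM in the 3 libraries with the lowest GC trend and at 395 to 484 CPM in the other 6, and ERBB3 is lowest in the 3 control libraries; the part of the GC trend in these levels was not tested.

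ERBB4, the fourth receptor, was close to the limit of detection. No library held more than 3 reads, and the 3 libraries of SP 3 h held 0, which allows up to 0.0982 to 0.211 CPM at 3 reads per library. Summed over the groups there were 5, 5 and 4 reads in Control 3 days, SP 3 days and SP 12 days, and 2, 0 and 3 in Control 24 h, SP 3 h and SP 24 h. ERBB4 did not pass the expression filter, so 9 of the 10 genes were tested in each comparison.

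Among the ligands, HBEGF, which binds EGFR and ERBB4 and also heparan sulfate, was higher with SP at all 4 times. Control 24 h libraries held 55, 25 and 88 reads (2.91, 1.32 and 3.09 CPM), SP 3 h libraries had 8.39, 5.48 and 6.76 CPM, and SP 24 h libraries had 4.37, 4.74 and 5.44 CPM. No SP library overlapped the control. HBEGF rose by 1.47 ± 0.29 at 3 h (edgeR adjusted p = 0.012) and by 0.98 ± 0.29 at 24 h (adjusted p = 0.032). The 24 h call was lost without Control 24 h replicate 2 (0.68, adjusted p = 0.055) or SP 24 h replicate 1, 2 or 3 (0.89 to 1.04, adjusted p 0.050 to 0.097), and in a fit of these 2 groups alone (0.96, adjusted p = 0.053). Every SP 24 h library was below every SP 3 h library, but the difference did not pass the test (log2 -0.49 ± 0.27, edgeR adjusted p = 0.23).

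The days experiment gave the larger HBEGF differences. The control held 37, 21 and 29 reads (1.77, 1.32 and 1.71 CPM), SP 3 days had 5.91, 5.24 and 6.10 CPM and SP 12 days had 4.81, 4.44 and 5.01 CPM. All 6 SP libraries were above 4 CPM and all 3 controls below 2. HBEGF rose by 1.83 ± 0.18 at 3 days, 3.56-fold (edgeR adjusted p = 6.6e-07), and by 1.56 ± 0.18 at 12 days, 2.94-fold (adjusted p = 3.6e-06). Per kilobase it stayed a minor ligand, from 0.535 ± 0.083 RPKM (SD, n = 3) in the control to 1.92 ± 0.15 in SP 3 days.

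BTC, which also binds EGFR and ERBB4, went the other way. Control 24 h had 4.29, 4.33 and 2.95 CPM, SP 3 h had 2.40, 2.40 and 3.50, and SP 24 h had 1.78, 1.23 and 1.59. SP 24 h lay below both other groups, and SP 3 h overlapped the control. BTC fell by 1.33 ± 0.25 at 24 h (log2 -1.33, edgeR adjusted p = 0.0038). At 3 h the log2 difference from control was -0.46 ± 0.24 (adjusted p = 0.28). SP 24 h was lower than SP 3 h (log2 -0.87 ± 0.25, adjusted p = 0.036), a call lost without SP 3 h replicate 1 or 3 or SP 24 h replicate 1, 2 or 3 (log2 -0.67 to -0.99, adjusted p 0.055 to 0.14).

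After days BTC was again low. The control had 4.49, 4.70 and 3.01 CPM, SP 3 days had 2.56, 2.01 and 2.57, and SP 12 days had 2.47, 3.09 and 2.61. SP 3 days did not overlap the control, and SP 12 days overlapped it through 1 library. BTC fell by 0.77 ± 0.21 at 3 days (log2 -0.77, edgeR adjusted p = 0.0069) and by 0.58 ± 0.20 at 12 days (log2 -0.58, adjusted p = 0.028). The 12-day call was lost with DESeq2 (log2 -0.57, adjusted p = 0.076) and on leaving out replicate 1 or 2 of Control 3 days or replicate 1 of SP 12 days (log2 -0.48 to -0.54, adjusted p 0.075 to 0.11).

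NRG1, the ligand of ERBB3 and ERBB4, differed in opposite directions at 3 h and after days. Control 24 h had 253, 217 and 286 CPM, SP 3 h had 150, 111 and 146, and SP 24 h had 232, 172 and 238. SP 3 h was below every library of the other groups, while SP 24 h overlapped the control. NRG1 fell by 0.89 ± 0.17 at 3 h (log2 -0.89, edgeR adjusted p = 0.0095). At 24 h the log2 difference from control was -0.24 ± 0.17 (adjusted p = 0.32), and SP 24 h was above SP 3 h by 0.66 ± 0.17 (adjusted p = 0.024). That difference between times lost its call without SP 3 h replicate 2 or 3 or SP 24 h replicate 1 or 3 (0.53 to 0.71, adjusted p 0.052 to 0.091).

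In the days experiment NRG1 had 118, 126 and 120 CPM in the control, 182, 176 and 176 in SP 3 days, and 289, 316 and 173 in SP 12 days. All SP libraries were above all controls, and SP 12 days replicate 3 stood just below the SP 3 days libraries. NRG1 rose by 0.55 ± 0.18 at 3 days (edgeR adjusted p = 0.027) and by 1.10 ± 0.18 at 12 days (adjusted p = 5.6e-04). The 3-day call was lost when any 1 of the 6 libraries of Control 3 days and SP 3 days was left out (0.53 to 0.58, adjusted p 0.062 to 0.087). Without SP 12 days replicate 3 the 3-day difference was 0.55 (adjusted p = 6.5e-08). SP 12 days and SP 3 days differed by 0.54 ± 0.18 (adjusted p = 0.094), and by 0.75 without SP 12 days replicate 3 (adjusted p = 1.3e-08). DESeq2 called that difference with all libraries (0.54, adjusted p = 0.013). NRG1 shares 189 of its 21372 exon bases with another gene on the same strand.

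TGFA, an EGFR ligand, was higher at 12 days. The days control had 30.8, 30.1 and 29.3 CPM, SP 3 days had 27.9, 29.4 and 27.9, and SP 12 days had 44.6, 44.7 and 37.9. SP 12 days was above both other groups, which overlapped each other. TGFA rose by 0.49 ± 0.09 at 12 days (edgeR adjusted p = 2.9e-04) and was above SP 3 days by 0.58 ± 0.09 (adjusted p = 0.0011). In the 24 h experiment it had 48.8, 30.8 and 40.7 CPM in control, 51.4, 48.2 and 47.7 at 3 h, and 31.0, 28.2 and 32.8 at 24 h. SP 3 h and SP 24 h did not overlap, and the control spanned the gap. SP 24 h was below SP 3 h (log2 -0.68 ± 0.16, adjusted p = 0.016), a call lost without SP 3 h replicate 1 (log2 -0.65, adjusted p = 0.056) or SP 24 h replicate 2 (log2 -0.62, adjusted p = 0.071). Neither time passed the test against control (0.29 ± 0.16, adjusted p = 0.29, and -0.39 ± 0.16, adjusted p = 0.093), although without Control 24 h replicate 2 TGFA passed at 24 h (log2 -0.56, adjusted p = 0.017).

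AREG and EREG, the abundant EGFR ligands at 24 h, lie with EPGN and BTC in a span of 486.1 kb on chromosome 4 in which these are the only protein-coding genes listed. AREG had 73.1, 37.4 and 56.0 CPM in Control 24 h, 45.3, 36.5 and 40.4 in SP 3 h and 58.5, 33.3 and 49.0 in SP 24 h. EREG had 195, 95.3 and 143 CPM in Control 24 h, 125, 73.4 and 109 in SP 3 h and 157, 77.9 and 113 in SP 24 h. In each of these groups both genes were highest in replicate 1 and lowest in replicate 2, and the groups overlapped. Neither passed the test at 3 h (AREG log2 -0.45 ± 0.26, EREG -0.49 ± 0.32, adjusted p = 0.33 and 0.40) or at 24 h (AREG -0.24 ± 0.26, EREG -0.32 ± 0.32, adjusted p = 0.50 and 0.48). With replicate number as a block, EREG at 24 h passed (log2 -0.32, adjusted p = 0.041).

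Both had lower CPM in the days experiment. AREG had 12.7, 12.8 and 11.6 CPM in control, 14.3, 14.1 and 13.6 in SP 3 days and 18.8, 24.0 and 12.1 in SP 12 days, where replicate 3 fell among the controls. AREG rose by 0.56 ± 0.19 at 12 days (edgeR adjusted p = 0.023) and by 0.78 without SP 12 days replicate 3 (adjusted p = 2.4e-06). The call was lost in a fit of the 2 groups alone (0.55, adjusted p = 0.056) and on leaving out any library of Control 3 days or replicate 1 or 2 of SP 12 days (0.29 to 0.58, adjusted p 0.056 to 0.13). EREG had 24.6, 27.5 and 24.4 CPM in control, 21.0, 20.6 and 19.7 in SP 3 days and 45.5, 56.6 and 21.9 in SP 12 days, the last again from replicate 3. Its log2 difference at 12 days was 0.69 ± 0.29 (adjusted p = 0.081), and without SP 12 days replicate 3 it was 0.99 (adjusted p = 4.9e-09). At 3 days neither passed (AREG 0.17 ± 0.19, EREG -0.32 ± 0.30, adjusted p = 0.48 and 0.42), although a fit of the 2 groups alone called EREG (log2 -0.32, adjusted p = 0.0054), as did the fit without SP 12 days replicate 3 (log2 -0.32, adjusted p = 0.0052). Between 12 and 3 days EREG differed by 1.01 ± 0.30 (adjusted p = 0.080), and DESeq2 called it (1.01, adjusted p = 0.029). Without SP 12 days replicate 3 this difference was 1.31 for EREG (adjusted p = 5.9e-10) and 0.61 for AREG (adjusted p = 2.1e-04), against 0.39 ± 0.19 for AREG with it (adjusted p = 0.23).

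**Figure D3:**
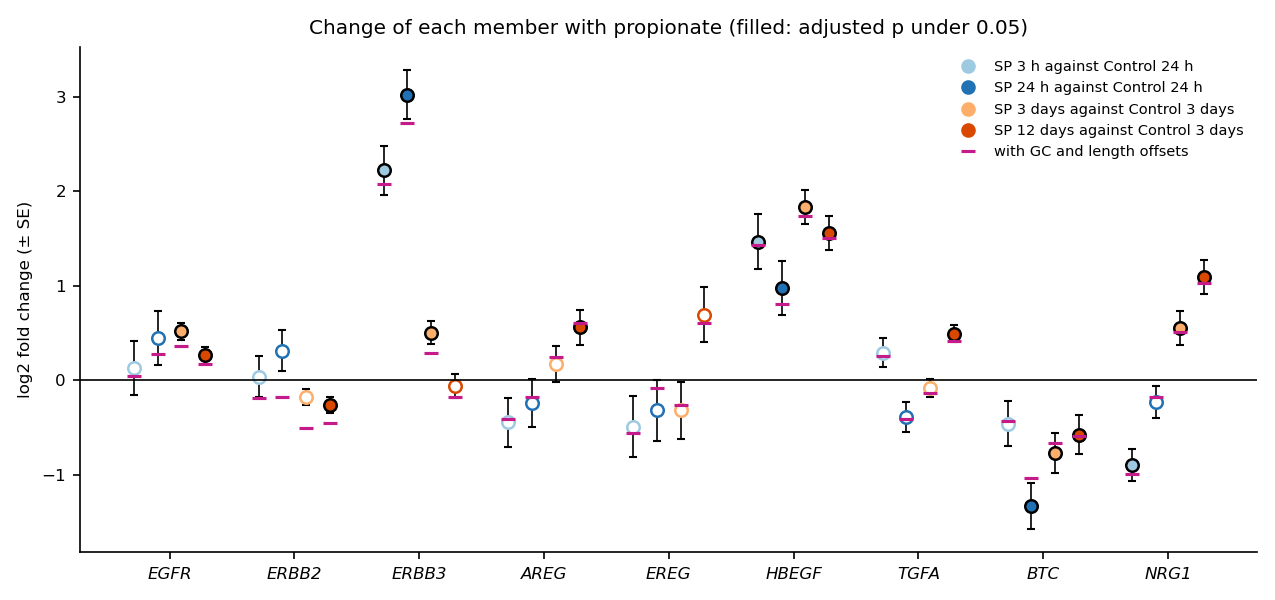
Log2 fold change of each of the 9 tested genes against the control of its experiment (vertical axis), with bars of 1 SE and a point per comparison, filled where the edgeR adjusted p is under 0.05. Pink dashes are the values with GC and length offsets; HBEGF is above 0 in all 4 comparisons (0.98 to 1.83), BTC is below 0 in all 4 (-0.46 to -1.33), and ERBB2 is where the offsets change the sign.

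The number of the 9 tested genes past the test is given beside the share of all genes past it, and at 24 h and 3 days the 2 shares were close. At 3 h, 2 were higher (ERBB3 and HBEGF) and 1 lower (NRG1), beside 7.39% of all tested genes higher and 4.11% lower. At 24 h, 2 were higher (ERBB3 and HBEGF) and 1 lower (BTC), beside 16.8% and 12.0%. Between 24 h and 3 h of SP, 2 were higher (ERBB3 and NRG1) and 2 lower (TGFA and BTC), beside 11.7% and 8.40%. Against control, the days experiment called a larger share of all genes in each direction. At 3 days, 4 were higher (EGFR, ERBB3, HBEGF and NRG1) and 1 lower (BTC), beside 25.2% and 23.3% of all genes. At 12 days, 5 were higher (EGFR, AREG, HBEGF, TGFA and NRG1) and 2 lower (ERBB2 and BTC), beside 26.4% and 23.4%. Between 12 and 3 days of SP, 1 was higher (TGFA) and 1 lower (ERBB3), beside 4.46% and 3.65%.

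The median log2 fold change of the 9 genes was 0.03 at 3 h, -0.24 at 24 h, 0.17 at 3 days and 0.49 at 12 days, beside 0.00, -0.01, -0.02 and -0.00 over all tested genes. At the stricter limits the study used, an adjusted p under 0.0001 with at least a 2-fold change, edgeR called ERBB3 alone at 24 h and HBEGF alone at 3 days and at 12 days, beside 0.685%, 8.44% and 9.11% of all genes. The 24 h call of ERBB3 at those limits was kept without SP 3 h replicate 3 (adjusted p = 8.4e-05) and lost in the other 8 of 9 fits that left out a library (adjusted p 1.3e-04 to 8.0e-04), with the replicate block (adjusted p = 4.9e-04) and with DESeq2's size factors in edgeR (adjusted p = 1.03e-04). The count over all genes at 24 h, 119, was 1 to 87 on leaving out a library, 2 with the block and 4 in the fit of the 2 groups alone. DESeq2 at those limits called ERBB3 and BTC at 24 h, HBEGF at 3 days, and HBEGF and NRG1 at 12 days, with 1123, 1739 and 1875 genes called in all. At 3 h edgeR called 0 of the 9 at those limits, beside 0% of all genes, with 3 of the 9 at an unadjusted p under 0.05, and DESeq2 called 2 (ERBB3 and HBEGF) among 401 genes in all. The comparisons within an experiment share their control libraries.

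Per kilobase of exon, the makeup of the receptor transcripts differed between groups. ERBB3 made up 1.01% ± 0.30 (SD, n = 3) of the summed RPKM of EGFR, ERBB2 and ERBB3 in Control 24 h, 4.12% ± 0.31 in SP 3 h and 5.73% ± 0.57 in SP 24 h. EGFR stayed near the same share, 66.5% ± 6.2, 66.8% ± 1.7 and 66.2% ± 1.9. In the days experiment EGFR went from 42.8% ± 2.5 in the control to 53.0% ± 1.8 in SP 3 days and 51.2% ± 3.6 in SP 12 days, and the ERBB2 share from 50.7% ± 2.6 to 39.0% ± 1.8 and 42.5% ± 2.1. EGFR was the smaller of these shares in all 3 control libraries and the larger in all 6 SP libraries. ERBB3 was 6.49% ± 0.09 in that control, 7.97% ± 0.10 in SP 3 days and 6.25% ± 1.56 in SP 12 days. These shares are descriptions without a test, and they move with the lengths given to the genes.

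Of the summed ligand RPKM, AREG and EREG together were the bulk in the 24 h experiment, with 41.2% ± 2.0 and 30.7% ± 2.2 in the control. In Control 3 days AREG held 29.1% ± 0.5, TGFA 23.7% ± 0.7, NRG1 22.0% ± 0.9 and EREG 17.3% ± 0.7. HBEGF went from 0.985% ± 0.244 in Control 24 h to 3.66% ± 0.27 in SP 3 h and 2.52% ± 0.71 in SP 24 h, and from 2.08% ± 0.38 in Control 3 days to 6.63% ± 0.54 in SP 3 days and 4.05% ± 1.42 in SP 12 days. BTC went from 5.90% ± 1.12 to 3.09% ± 0.41 and 2.56% ± 0.66 in the days experiment. NRG1 went from 22.0% ± 0.9 to 28.7% ± 0.2 and 28.9% ± 1.6 there, and from 15.1% ± 3.2 to 10.2% ± 0.5 and back to 15.1% ± 1.7 in the 24 h experiment.

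The order of levels per kilobase in Control 24 h was AREG (33.8 ± 10.9 RPKM, SD, n = 3), EREG (25.2 ± 8.7), EGFR (20.1 ± 8.9), NRG1 (11.8 ± 1.6), ERBB2 (9.37 ± 2.23), TGFA (8.15 ± 1.84), BTC (1.45 ± 0.30), HBEGF (0.816 ± 0.325) and ERBB3 (0.291 ± 0.086). AREG, EREG and EGFR lay within 1 SD of their neighbours, as did ERBB2 and TGFA, and the gap between TGFA and BTC was wider than both SDs. In Control 3 days the order was ERBB2 (15.6 ± 1.6), EGFR (13.1 ± 0.6), AREG (7.54 ± 0.39), TGFA (6.12 ± 0.16), NRG1 (5.67 ± 0.20), EREG (4.47 ± 0.30), ERBB3 (1.99 ± 0.10), BTC (1.53 ± 0.35) and HBEGF (0.535 ± 0.083), with each gap wider than the larger SD of its neighbours. The untreated groups thus differed from each other: ERBB3 averaged 3.41 CPM in Control 24 h and 23.3 CPM in Control 3 days, and EREG 144 and 25.5 CPM. The experiments were normalised separately and were not tested against each other, so time, handling and table cannot be told apart in these levels.

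The pathway around the receptors was described with 8 lists of 78 genes, and the list counts are to be read against the shares of all tested genes: 7.39% higher and 4.11% lower at 3 h, 16.8% and 12.0% at 24 h, 25.2% and 23.3% at 3 days, and 26.4% and 23.4% at 12 days. Those shares are from the main fit, so list counts with the offsets have another background. Among all tested genes, the offset fit called 1553 lower for SP 3 h and 4199 for SP 24 h. For SP 3 days it called 5915 lower, and for SP 12 days 5705. The main fit had 714, 2087, 4147 and 4166 in that order. Genes called higher numbered 1493, 2447, 3791 and 4026 with the offsets, against 1285, 2922, 4487 and 4692 without. Of 8 genes of ligand shedding and maturation, 6 were higher at 3 days and 4 at 12 days (5 and 4 with the offsets, which also called 1 lower at 12 days). They included RHBDF2 and RHBDF1, the iRhoms that carry ADAM17 to the cell surface, and the protease ADAM9. RHBDF2 rose from 56.0 ± 6.1 to 176 ± 13 CPM at 3 days (log2 1.65 ± 0.09, edgeR adjusted p = 1.6e-09, and 1.17 with the offsets) and to 156 ± 10 CPM at 12 days. RHBDF1 rose by 0.91 ± 0.09 at 3 days (adjusted p = 8.6e-07, and 0.44 with the offsets), and ADAM9 by 0.51 ± 0.08 (adjusted p = 7.9e-05). At 24 h, 3 were higher and 1 lower: RHBDF2 by 1.08 ± 0.29 (adjusted p = 0.024, and 0.44 with the offsets), while ADAM12 fell (log2 -1.10 ± 0.23, adjusted p = 0.0065). At 3 h edgeR and DESeq2 called 0 of the 8, with 2 at an unadjusted p under 0.05.

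Among 12 receptor inhibitors and down-regulators, 3 were higher at 3 h and 3 at 24 h, and after days the count was 2 higher and 2 lower at 3 days, then 1 higher and 3 lower at 12 days. With the offsets it was 4 higher and 1 lower at 3 h, 2 higher at 24 h, 1 higher and 4 lower at 3 days, and 1 higher and 6 lower at 12 days. ERRFI1 (MIG6), a feedback inhibitor that binds the EGFR kinase domain, passed in opposite directions in the 2 experiments. It rose from 74.7 ± 4.6 to 127 ± 12 CPM at 3 h (log2 0.76 ± 0.11, edgeR adjusted p = 0.0028) and to 103 ± 8 CPM at 24 h (0.46 ± 0.11, adjusted p = 0.012). It fell from 144 ± 8 to 72.5 ± 3.6 CPM at 3 days (log2 -0.99 ± 0.08, adjusted p = 4.6e-08) and to 58.6 ± 1.1 CPM at 12 days (log2 -1.30 ± 0.08, adjusted p = 2.2e-09). The phosphatase gene PTPN1 rose at 3 h (0.71 ± 0.12, adjusted p = 0.0050), and PTPRJ, a receptor-type phosphatase, at 3 days (0.51 ± 0.08, adjusted p = 4.4e-05). RNF41, which encodes a ubiquitin ligase of ERBB3, rose at 3 h (0.60 ± 0.12, adjusted p = 0.011), and LRIG3 fell at 12 days (log2 -0.47 ± 0.11, adjusted p = 0.0020).

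Of 10 genes of ERK output, 3 were lower at 3 h, 1 was higher and 2 lower at 24 h, and at both 3 and 12 days 3 were higher and 5 lower. With the offsets 4 were lower at 3 h and 4 at 24 h, and 3 were higher and 6 lower at both later times. DUSP4 and DUSP6, phosphatases that ERK signalling induces, and SPRY2, a feedback inhibitor, fell at 3 h: DUSP4 from 396 ± 36 to 228 ± 18.5 CPM (log2 -0.80 ± 0.11, edgeR adjusted p = 0.0022) and SPRY2 by 0.81 ± 0.12 (log2 -0.81, adjusted p = 0.0036). DUSP6 fell again at 3 days (log2 -0.82 ± 0.15, adjusted p = 3.6e-04), as did the transcription factor gene ETV5 (-0.75 ± 0.08, adjusted p = 9.4e-07), and ETV4 fell at 12 days (-1.05 ± 0.11, adjusted p = 7.8e-07). In the other direction, CCND1, the cyclin D1 gene, rose from 202 ± 4 to 428 ± 76 CPM at 12 days (1.08 ± 0.11, adjusted p = 7.0e-07), and EPHA4 rose by 1.25 ± 0.17 (adjusted p = 1.8e-05). ETV4 was higher at 24 h (0.55 ± 0.16, adjusted p = 0.028), a call lost with the offsets (log2 -0.01, adjusted p = 0.94). Of 10 early genes, 4 were higher at 3 h, among them FOS (0.93 ± 0.21, adjusted p = 0.019) and IER3 (0.78 ± 0.15, adjusted p = 0.0097). The later counts for this list were 3 up and 1 down at 24 h, 4 up and 3 down at 3 days and 4 up and 4 down at 12 days, where VEGFA fell by 0.90 ± 0.08 (log2 -0.90, adjusted p = 2.0e-07). The offsets gave 2 up and 3 down at 24 h and 3 up and 4 down at 12 days.

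The transducers between receptor and output were mixed. The list of 12 adaptors had 3 higher and 4 lower genes at 3 days and 3 higher and 5 lower genes at 12 days, with the kinase gene SRC falling from 468 ± 41 to 266 ± 12 CPM (log2 -0.81 ± 0.08, edgeR adjusted p = 8.5e-07) and the adaptor SHC1 by 0.50 ± 0.07 (log2 -0.50, adjusted p = 3.3e-05) at 3 days. GAB2, a docking protein gene, rose by 0.62 ± 0.09 at 3 days (adjusted p = 5.3e-05) and by 0.50 ± 0.09 at 12 days (adjusted p = 3.6e-04). The offsets gave 2 higher and 5 lower adaptors at 3 days and 3 and 6 at 12 days. In the RAS, RAF, MEK and ERK list of 10, the 3-day count was 2 higher and 4 lower, BRAF among the latter (log2 -0.66 ± 0.12, adjusted p = 3.2e-04), and the 12-day count 3 and 3, against 0 and 5, then 1 and 3, with the offsets. MAPK3 (ERK1) rose at 24 h (0.80 ± 0.11, adjusted p = 6.9e-04), but not with the offsets (0.18, adjusted p = 0.35). In the PI3K and AKT list, PDPK1, the kinase gene upstream of AKT, rose at 3 h (0.71 ± 0.13, adjusted p = 0.0092), and AKT2 fell at 3 days (log2 -0.30 ± 0.08, adjusted p = 0.0072). Of the 5 other EGF-family ligands, 2 were tested at 24 h and 3 after days. NRG2 rose at 3 h (0.72 ± 0.15, adjusted p = 0.012), and this call was lost with the offsets (0.47, adjusted p = 0.057).

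**Figure D4:**
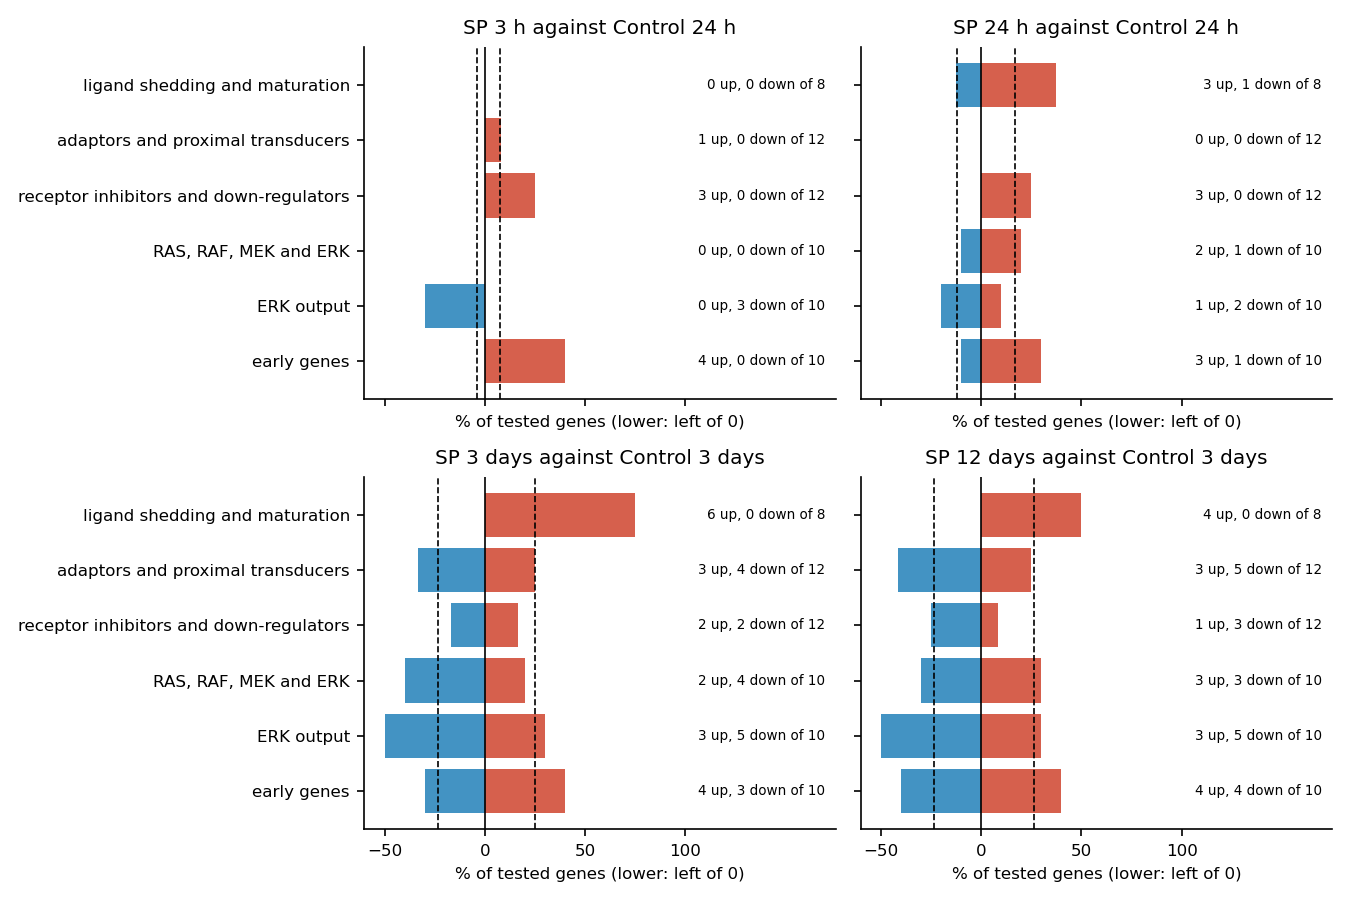
For 6 gene lists around the receptors, bars give the percent of tested genes that were higher (red, right of 0) or lower (blue, left of 0) at an edgeR adjusted p under 0.05 in each comparison with control, and dashed lines give the percent of all tested genes. Ligand shedding and maturation reached 6 of 8 higher at 3 days, and ERK output had 5 of 10 lower at both 3 and 12 days.

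Likeness to NRG1 and EGFR was measured on log2 CPM taken as the difference from the mean of the control libraries of the same experiment. Across the 18 libraries the genes that followed NRG1 most closely were PHLDA3 (Pearson's r = 0.970), INO80C (0.957) and CSNK2A1 (0.956), of 11280 genes compared. For EGFR they were ATP11A (0.949), CMIP (0.947) and MED15 (0.945). The libraries share experiment and treatment, and those of the 24 h experiment differ in GC trend, so these values are a description.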

How the data were processed

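Raw read counts per Ensembl gene were deposited as 2 tables of 9 libraries. Per the labels and the study's methods, the authors isolated total RNA, made NEBNext Ultra libraries, sequenced paired ends, aligned reads to GRCh38 with STAR 2.7.9a and counted them with featureCounts, without normalization. Strandedness and the handling of multi-mapping reads are not given in the sources used here. The study calls the RNA-seq replicates of its 3 h and 24 h experiment biological, and for 3 and 12 days it gives only 3 per group. Neither it nor the labels say that replicates came from separate cultures. The p-values therefore measure the spread between these libraries, which may be technical.

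Each table was analysed with edgeR 4.0.16 (R 4.3.3): filterByExpr with a minimum count of 10 kept 17775 genes in the days table and 17377 in the hours table, TMM scaling followed, and 1 robust quasi-likelihood model with a group term was fitted over all 9 libraries. Benjamini-Hochberg adjustment covered every gene tested in a comparison, and a gene passed at an adjusted p under 0.05. CPM are TMM-scaled, and RPKM divide by the union exon length of GENCODE 44. Likeness was taken over genes averaging 100 or more counts. Alternatives were DESeq2 1.42.0, its size factors, no filter, 2 groups only, a replicate block, offsets for GC content and length, each library left out, and the study's thresholds. The procedure was tested on simulated data.

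Same-numbered libraries of Control 24 h and SP 24 h deviated together for replicates 1 and 3 (residual r = 0.50 and 0.50). For replicate 2 the value was 0.170, beside 0.175 between SP 24 h replicate 2 and Control 24 h replicate 3. After GC and length correction the same-number values were 0.37, 0.21 and 0.36. Differently numbered libraries of SP 3 h and Control 24 h reached 0.58. These values do not establish a pairing, and the labels give only the numbers. The model had no block; the blocked value is given where it changes a call. The genes and lists were chosen with earlier results of these data known. List genes were named by a fixed rule, up to 3 per list and comparison by size of change among those past the test that averaged 50 or more counts in a group. Some genes of these lists, and the counts of the PI3K and AKT list, are not reported here.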

Additional observations from a re-analysis of the deposited data

Results flagged for a closer look

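The times of SP differed for 4 genes in the 24 h experiment, by the test of SP 24 h against SP 3 h itself: ERBB3 (log2 0.80) and NRG1 (0.66) were higher at 24 h, and TGFA (-0.68) and BTC (-0.87) were lower. For 2 genes of the days experiment SP 12 days differed from SP 3 days, ERBB3 being lower (log2 -0.56) and TGFA higher (0.58). Of all tested genes, 11.7% were higher and 8.40% lower between 24 h and 3 h, and 4.46% and 3.65% between 12 and 3 days. Among the fits that left out a library, the 24 h against 3 h call was lost in 5 for ERBB3 and 5 for BTC. It was lost in 4 for NRG1 and 2 for TGFA. Between 12 and 3 days the call was lost in 2 for ERBB3 and 0 for TGFA. The replicate block also lost the BTC call (edgeR adjusted p = 0.062).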

How the results depend on the processing

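Over 54 values (9 genes in 6 comparisons), DESeq2's size factors kept the direction and the side of the threshold of all 54, DESeq2 of 51, the replicate block of 51, the GC and length offsets of 49, and the fit of 2 groups alone of 50. Leaving out a library kept 425 of 486. At the study's thresholds the number of genes called was 0 at 3 h, 1 at 24 h, 0 between 24 h and 3 h, 1 at 3 days, 1 at 12 days and 0 between 12 and 3 days. Of all tested genes, 0% passed them at 3 h, 0.685% at 24 h, 8.44% at 3 days and 9.11% at 12 days. Between 24 h and 3 h 5 of all genes were called higher and 0 lower, and between 12 and 3 days 27 and 5. DESeq2 with those thresholds, chosen after seeing the data, called 2 at 3 h, 2 at 24 h, 0 between 24 h and 3 h, 1 at 3 days, 2 at 12 days and 0 between 12 and 3 days. The genes it called in all were 401, 1123, 606, 1739, 1875 and 98 in that order. Between 12 and 3 days DESeq2 called 4, among 1568 genes in all. The fit with no filter on low counts also called 4, with 1147 genes higher and 893 lower of 39415. Leaving out 1 library gave 1 to 4 genes between 24 h and 3 h, 4 to 9 at 12 days and 1 to 5 between 12 and 3 days. The 9 and the 5 came without SP 12 days replicate 3. In that fit 54.9% of all genes passed at 12 days (9924 of 18067) and 28.1% between 12 and 3 days (5073 of 18067). Fewest genes in all passed at 12 days without Control 3 days replicate 1, with 4106 higher and 3509 lower. Between 12 and 3 days the fewest were 302 higher and 254 lower, without SP 12 days replicate 1. Between 24 h and 3 h the fewest were 1161 and 562, without SP 24 h replicate 2. The most were 2404 and 2002, without Control 24 h replicate 3. The offsets turned ERBB2 to -0.19 at 3 h, -0.18 at 24 h and 0.0525 between 12 and 3 days, and with a replicate block to -0.19, -0.18 and 0.0527. Leaving out a library gave -0.10 to 0.56 for EGFR at 3 h, -0.17 to 0.22 for ERBB2 at 3 h, -0.11 to 0.39 for EREG between 24 h and 3 h, and -0.27 to 0.0066 for ERBB3 at 12 days. With the replicate block, EREG passed at 3 h (log2 -0.46, adjusted p = 0.023) and BTC between 24 h and 3 h did not (log2 -0.88, adjusted p = 0.062). Over all genes, same-numbered libraries of SP 3 h and Control 24 h did not deviate together (residual r = -0.09, -0.03 and -0.59). EREG itself kept the same order of replicates in both groups. Beside EREG at 24 h the block changed no other call. With the offsets, the share of called genes that were higher went from 58.3% to 36.8% at 24 h, from 52.0% to 39.1% at 3 days, from 53.0% to 41.4% at 12 days, from 64.3% to 49.0% at 3 h, from 58.3% to 42.0% between 24 h and 3 h and from 55.0% to 58.6% between 12 and 3 days. The cause of these differences was not tested. ERBB4 had 3 reads or fewer per library, and limited depth and low expression were not told apart.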
